A study of Mus musculus with 2 samples.

Results

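The interferon-responsive genes described here are Ifitm1, Ifitm2, Ifitm3, Stat2, Irf7, Irf9, Ifi27, Ifi27l2b and Isg15, 9 of the 37172 genes in the deposited expression table. They were chosen by symbol, with earlier results of these data known, and all 9 have a row. The question set for them was whether the Ifitm genes and the Stat, Irf and Ifi27 genes differ in the same direction between cultures. The study profiled single cells of small intestinal organoids from C57BL/6 WT mice, grown from proximal small intestine and taken on day 4. Collagen cells came from cystic spherical organoids embedded in collagen type I, under ENRW medium, which contains EGF, Noggin and R-spondin1 plus 100 ng/mL Wnt3a, 10 mM nicotinamide and 1% bovine serum albumin. Matrigel cells came from budding organoids embedded in Matrigel, a basement membrane extract, under ENR medium, which has the same EGF, Noggin and R-spondin1 without these 3 additions. Collagen gels were digested with collagenase and Matrigel domes with a cell recovery solution, so gel, medium and release from the gel cannot be told apart. The number and age of the mice are not given in the sources used here. One pool of hashtagged cells from both cultures gave 1 cDNA library, with 1 suspension of cells per culture, so no difference between cultures has a replicate check and none was tested.

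After filtering, 336 collagen cells with a median of 124619 counts and 1599 Matrigel cells with a median of 179044 counts were used. The collagen cells held 42540314 counts in all and the Matrigel cells 285201649. No cell barcode occurred more than once. The labelled epithelial cell type was checked with Epcam, Cdh1, Vil1 and Krt8, whose summed level was 4918 counts per 1000000 (CPM) in collagen cells and 2589 CPM in Matrigel cells. The 7 immune markers summed to 8.94 CPM in collagen cells and 4.69 CPM in Matrigel cells, the 4 fibroblast markers to 0.731 CPM in collagen cells and 0.760 CPM in Matrigel cells, and both endothelial markers to 1.34 CPM in collagen cells and 1.31 CPM in Matrigel cells.

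Interferons are secreted proteins that bind cell surface receptors. Those of types I and III lead, through the kinases Jak1 and Tyk2, to phosphorylation of STAT proteins. Stat2 and Irf9 are parts of the complex ISGF3, which binds the interferon-stimulated response element (ISRE) in promoters of responsive genes, and Irf7 drives further type I interferon transcription. Among the targets, Ifitm genes encode small membrane proteins that hinder virus entry, Isg15 encodes a ubiquitin-like protein, and Ifi27 and Ifi27l2b belong to a family of small hydrophobic proteins. In the intestine, type III interferon acts mainly on the epithelium, and Ifitm genes are also known to be expressed in epithelial stem and progenitor cells without added interferon.

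Promoter sequence is shown first, because the ISRE is the shared sequence feature by which such genes are known. Windows from 250 bases before to 50 bases after the start were taken from RefSeq in build GRCm38.p6, and 7 of the 9 genes had one. The letters GAAANNGAAA, or TTTCNNTTTC on the other strand, occurred in Ifitm2, Ifitm3, Stat2 and Isg15 and not in the windows of Ifitm1, Irf7 or Irf9. They occurred in 3.44% of all 32851 windows. The match in Ifitm2 began at position -46 relative to the start and that in Stat2 at -222, on the other strand. The first base of the gene counts as 0. Isg15 held 3 overlapping matches at -78, -72 and -66, and Ifitm3 held 2 just after its start, at 2 and 19. The stretches with matches are given below with that of Irf7, which had none in this window. Each is written 5′ to 3′ on the strand of the gene, with the matched letters in capitals.
Ifitm3, chr7:141010714-141010743, minus strand: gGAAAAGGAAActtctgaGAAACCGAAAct
Ifitm2, chr7:140955962-140956211, minus strand: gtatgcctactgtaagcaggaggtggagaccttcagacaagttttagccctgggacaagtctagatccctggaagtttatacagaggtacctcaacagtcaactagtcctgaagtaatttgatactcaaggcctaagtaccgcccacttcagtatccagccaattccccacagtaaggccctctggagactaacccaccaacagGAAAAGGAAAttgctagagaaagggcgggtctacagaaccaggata
Stat2, chr10:128270248-128270497, plus strand: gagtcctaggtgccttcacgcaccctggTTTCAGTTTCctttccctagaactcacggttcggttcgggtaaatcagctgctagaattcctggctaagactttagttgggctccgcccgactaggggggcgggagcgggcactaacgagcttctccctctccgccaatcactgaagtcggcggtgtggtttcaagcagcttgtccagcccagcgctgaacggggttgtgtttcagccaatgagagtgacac
Isg15, chr4:156200819-156201068, minus strand: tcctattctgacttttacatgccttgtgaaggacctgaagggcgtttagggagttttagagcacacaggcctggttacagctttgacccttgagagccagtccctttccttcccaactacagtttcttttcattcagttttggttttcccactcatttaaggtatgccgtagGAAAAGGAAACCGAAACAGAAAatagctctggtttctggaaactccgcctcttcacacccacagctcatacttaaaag
Irf7, chr7:141266425-141266674, minus strand: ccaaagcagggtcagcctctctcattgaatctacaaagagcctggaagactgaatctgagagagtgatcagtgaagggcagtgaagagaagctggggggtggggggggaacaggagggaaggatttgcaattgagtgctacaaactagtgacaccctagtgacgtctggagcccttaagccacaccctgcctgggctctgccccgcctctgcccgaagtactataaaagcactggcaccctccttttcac

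The letters CTTTGAA and CTTTGAT, or TTCAAAG and ATCAAAG on the other strand, which resemble the site of the Wnt pathway factors TCF and LEF, were in none of the 7 genes' windows and in 8.65% of all windows. The letters TTCNNNGAA, the core of the site bound by STAT dimers, were found in Ifitm3 alone of the 7, where they overlap the second ISRE match, and in 8.30% of all windows. A match in letters describes the sequence and shows no binding.

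The members did not all differ in the same direction. Both Ifitm genes with a measurable level were lower in collagen cells, while Stat2, Irf7 and Ifi27l2b were more than 2-fold higher in collagen cells and Ifi27 was close to 2-fold higher. Irf9, below 5 CPM, was slightly lower in collagen cells, unlike Stat2 and Irf7. Ifitm1 and Isg15 were near 0 in both cultures. Levels are counts summed over the cells of a culture and scaled to 1000000. The log2 ratio is collagen over Matrigel after 1 CPM was added to each level. Intervals are exact 95% Poisson intervals of the summed counts and cover counting error only.

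Ifitm3 was at 39.2 CPM (37.4 to 41.1) in collagen cells, against 480 CPM (477 to 483) in Matrigel cells, a log2 ratio of -3.58. Of 10593 genes that reached 5 CPM in either culture, 16 had a ratio further toward Matrigel. The 7 stem cell markers were also lower in collagen cells, at a summed 272 CPM in collagen cells and 2776 CPM in Matrigel cells. Olfm4 alone reached 1637 CPM in Matrigel cells, against 31.2 CPM in collagen cells, so that sum does not speak for the whole list. The log2 ratios of the 7 ran from -5.67 for Olfm4 to -1.61 for Smoc2. Their part in the Ifitm3 difference was not tested. Ifitm2 was at 87.7 CPM (84.9 to 90.6) in collagen cells, against 208 CPM (207 to 210) in Matrigel cells, a log2 ratio of -1.24. Its level is uncertain, since 60.1% of its values above 0 were fractional, and in 1867 of 1935 cells (96.5%) its value equalled that of Gm45717, within 1e-06. Reads of these 2 genes could therefore not be told apart in the table. The sum of both was 176 CPM in collagen cells and 417 CPM in Matrigel cells, again with a log2 ratio of -1.24. Ifitm1 had 1 count in collagen cells and 58 counts in Matrigel cells, which is 0.0235 CPM in collagen cells and 0.202 CPM in Matrigel cells, a plain ratio of 0.116 with an interval of 0.00288 to 0.670. Both Ifitm1 levels are far below the 5 CPM used here for a call. The related genes Ifitm5, Ifitm6, Ifitm7 and Ifitm10 were all below 1 CPM in each culture, so the family's level in these epithelial cells lay almost wholly in Ifitm2 and Ifitm3.

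Stat2, the STAT subunit particular to the type I and III response, was at 13.8 CPM (12.7 to 15.0) in collagen cells, against 4.54 CPM (4.30 to 4.80) in Matrigel cells, a log2 ratio of 1.42. Irf7 was at 5.22 CPM (4.55 to 5.95) in collagen cells, against 0.992 CPM (0.880 to 1.11) in Matrigel cells, a log2 ratio of 1.64. Its collagen interval spans the 5 CPM floor. The 10 highest cells held 39.2% of the Irf7 counts in collagen cells and 26.5% in Matrigel cells. These shares are not alike, since 10 cells are a larger part of 336 collagen cells than of 1599 Matrigel cells. The 7 immune markers were all below 1 CPM in both cultures except Cd68, at 7.69 CPM in collagen cells and 3.69 CPM in Matrigel cells. The 5 enteroendocrine markers with a row summed to 654 CPM in collagen cells and 208 CPM in Matrigel cells. The highest of these 5 alone reached 569 CPM in collagen cells, so the sum does not speak for the whole list. The part of the immune and enteroendocrine markers in the Stat2 and Irf7 differences was not tested. Irf9, the DNA-binding subunit of ISGF3, was below the 5 CPM floor and within 2-fold, with 2.26 CPM (1.83 to 2.76) in collagen cells and 3.11 CPM (2.91 to 3.32) in Matrigel cells, and a log2 ratio of -0.33.

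Ifi27l2b was at 255 CPM (250 to 259) in collagen cells, against 114 CPM (112 to 115) in Matrigel cells, a log2 ratio of 1.16. The 8 enterocyte markers summed to 1397 CPM in collagen cells and 821 CPM in Matrigel cells. The highest of them alone reached 1110 CPM in collagen cells, so that sum does not speak for the whole list. The 5 regenerative markers summed to 904 CPM in collagen cells and 25.5 CPM in Matrigel cells. The part of these markers in the Ifi27l2b difference was not tested. Ifi27 was at 12.2 CPM (11.2 to 13.3) in collagen cells, against 5.63 CPM (5.35 to 5.91) in Matrigel cells. Its plain ratio was 2.16 and its log2 ratio 0.99, just inside the 2-fold limit once 1 CPM was added. Ifi27 lies within the span of Ifi27l2a in the RefSeq annotation, so reads of these 2 genes could be confused, though Ifi27l2a itself was at 0.266 CPM in collagen cells, against 0.821 CPM in Matrigel cells. Isg15 was close to absent in both cultures, with 18 counts in collagen cells and 62 counts in Matrigel cells. That is 0.423 CPM (0.251 to 0.669) in collagen cells and 0.216 CPM (0.167 to 0.279) in Matrigel cells, a plain ratio of 1.96 with an interval of 1.08 to 3.33.

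By the 2-fold limit, 2 of the 9 members (Ifitm2 and Ifitm3) were lower with collagen and 3 of the 9 (Stat2, Irf7 and Ifi27l2b) were higher, where 8.91% of the 10593 genes reaching 5 CPM were lower by that limit and 8.21% higher. Of the 9 members, 6 reached 5 CPM in either culture and could be called. Because the members were chosen with earlier results of these data known, no excess over the shares of all genes is read from these counts. The median log2 ratio was -1.24 over the 3 Ifitm genes and 1.16 over Stat2, Irf7, Irf9, Ifi27 and Ifi27l2b. With 5 CPM added in place of 1, only Ifi27l2b stayed 2-fold higher in collagen cells, since Stat2 then had a log2 ratio of 0.98 and Irf7 one of 0.77.

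**Figure D1:**
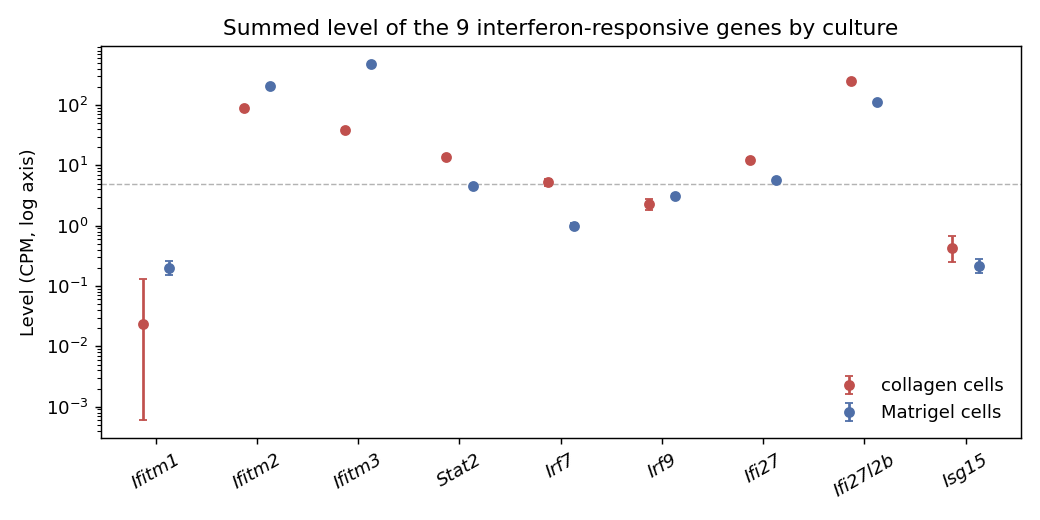
Level of each of the 9 genes in CPM on a log axis, in collagen cells (red, left) and Matrigel cells (blue, right), with exact 95% Poisson intervals as bars, 1 suspension per culture. Ifitm3 lies at 39.2 CPM in collagen cells against 480 CPM in Matrigel cells, Ifi27l2b at 255 CPM in collagen cells against 114 CPM in Matrigel cells, and Ifitm1, Irf9 and Isg15 stay under the dashed line at 5 CPM.

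The difference in Ifitm3 held over most cells rather than a few Matrigel cells. The median cell had 5.79 CPM of Ifitm3 in collagen and 410 CPM in Matrigel, and the level that 90% of cells did not exceed was 58.3 CPM in collagen and 1070 CPM in Matrigel. A level of at least 100 CPM was seen in 18 of 336 collagen cells and in 1250 of 1599 Matrigel cells. The collagen counts were concentrated, with the 10 highest cells holding 62.3% of them, against 2.85% in the 10 highest Matrigel cells. Part of that contrast follows from the smaller number of collagen cells. For Ifitm2 the median cell had 68.1 CPM in collagen and 211 CPM in Matrigel. For Ifi27l2b it had 175 CPM in collagen and 93.3 CPM in Matrigel, with quartiles of 73.0 and 326 CPM in collagen cells and of 51.3 and 153 CPM in Matrigel cells, so the ranges of single cells overlapped widely. The median cell of both cultures had 0 CPM of Stat2, Irf7, Irf9, Ifi27, Isg15 and Ifitm1.

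**Figure D2:**
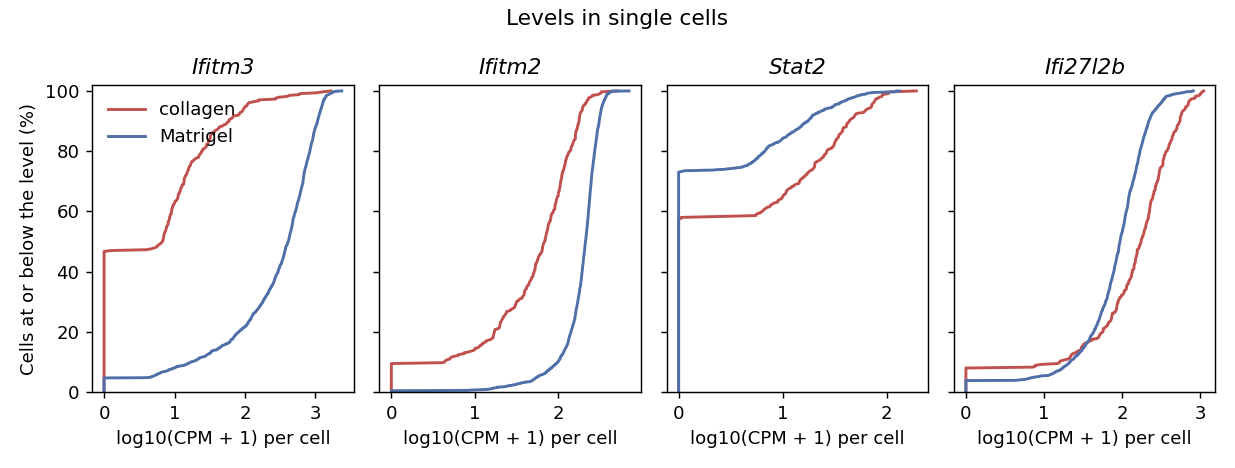
Share of cells (y axis, %) at or below each level (x axis, log10 of CPM + 1 per cell) for 4 genes, in collagen cells (red, n = 336) and Matrigel cells (blue, n = 1599). The Ifitm3 curves stand far apart, with medians of 5.79 CPM in collagen cells and 410 CPM in Matrigel cells, while the Ifi27l2b curves cross at low levels, with medians of 175 CPM in collagen cells and 93.3 CPM in Matrigel cells.

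Because Matrigel cells were deeper, shares of cells with a count were compared at 1 depth of 77972 counts per cell, reached by random thinning. Of the collagen cells 264 were deep enough and 72 were left out, and of the Matrigel cells 1477 were deep enough and 122 were left out. Intervals of shares are exact 95% binomial intervals. Ifitm3 was found in 41.7% (35.7 to 47.9) of collagen cells and 94.2% (92.9 to 95.3) of Matrigel cells, and without thinning in 53.3% of collagen cells and 95.2% of Matrigel cells. Ifitm2 was found in 90.2% of collagen cells and 99.7% of Matrigel cells, and without thinning in 90.5% of collagen and 99.5% of Matrigel cells. Stat2 was found in 40.5% (34.6 to 46.7) of collagen cells and 17.3% (15.4 to 19.4) of Matrigel cells, and without thinning in 42.6% of collagen and 27.0% of Matrigel cells. Irf7 was found in 16.3% (12.0 to 21.3) of collagen cells and 4.20% (3.23 to 5.35) of Matrigel cells, and without thinning in 18.8% of collagen and 6.63% of Matrigel cells. For Stat2 and Irf7, then, a larger share of collagen cells than of Matrigel cells carried a count.

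Irf9 was found in 9.09% (5.91 to 13.2) of collagen cells and 14.8% (13.1 to 16.7) of Matrigel cells, and without thinning in 15.5% of collagen and 25.0% of Matrigel cells. Ifi27 was found in 28.8% (23.4 to 34.7) of collagen cells and 18.3% (16.3 to 20.3) of Matrigel cells, and without thinning in 29.5% of collagen and 22.5% of Matrigel cells. Ifi27l2b was in nearly every cell, at 94.7% (91.3 to 97.1) of collagen cells and 95.3% (94.1 to 96.3) of Matrigel cells, and without thinning in 92.0% of collagen and 96.1% of Matrigel cells. Its difference between cultures was therefore in the amount per cell. Isg15 was found in 1.52% of collagen cells and 1.08% of Matrigel cells, and without thinning in 2.38% of collagen and 1.81% of Matrigel cells. Ifitm1 was found in 0 of 264 thinned collagen cells, which allows up to 1.14% of cells with a count (3 of 264), and in 0.948% of thinned Matrigel cells.

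Free RNA can place counts in cells that do not express a gene, and no cell type known to lack all of these genes was at hand. The Matrigel cluster led by Reg1, Sis and Rbp2 (enterocyte-like, from the markers Sis, Rbp2 and Fabp1) had the lowest Ifitm3 level of the Matrigel clusters, and after thinning 20 of its 40 cells (50.0%, 33.8 to 66.2) had a count. Those 40 cells had a median depth of 209236 counts before thinning. The collagen share of Ifitm3 was no higher than this. Because the enterocyte-like cells are not known to lack Ifitm3, the share alone cannot tell expression from free RNA, and neither is read from it. In the same 40 cells Stat2 was found in 10.0% (2.79 to 23.7), below the collagen share of 40.5% and its interval. Irf7 was found in 7.50% (1.57 to 20.4), an interval that overlaps that of the collagen share. Ifi27 was found in 27.5% (14.6 to 43.9), Ifitm2 in 92.5% (79.6 to 98.4), Irf9 in 17.5% (7.34 to 32.8), Ifi27l2b in 97.5% (86.8 to 99.9) and Isg15 in 2.50% (0.0633 to 13.2). The collagen shares of these 5 genes lay within those intervals, and no difference from the enterocyte-like cells is read from them. Of the collagen shares, that of Stat2 alone stood clear of the enterocyte-like cells.

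**Figure D3:**
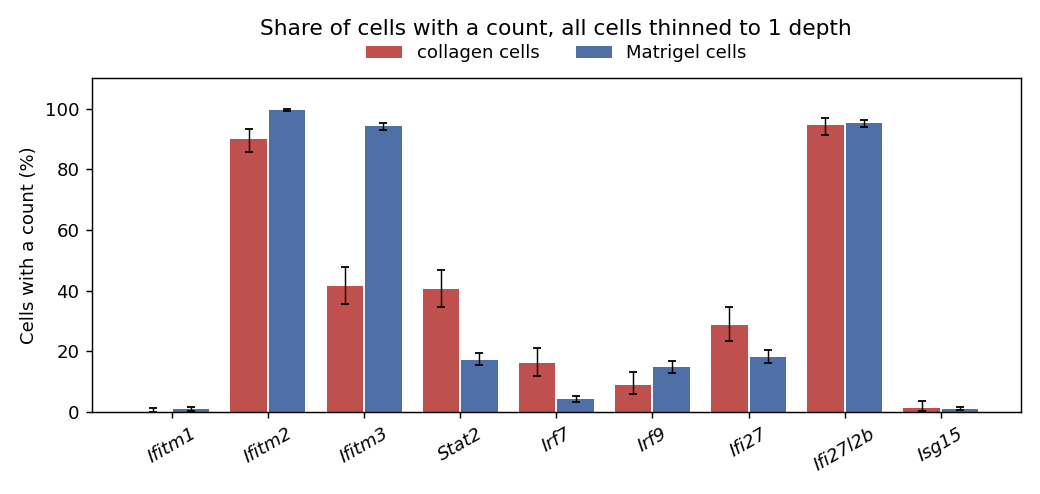
Share of cells with at least 1 count (y axis, %) for each gene, in collagen cells (red, left, n = 264) and Matrigel cells (blue, right, n = 1477), each cell thinned to 77972 counts, with exact 95% binomial intervals. Ifitm3 is at 41.7% of collagen and 94.2% of Matrigel cells, Stat2 at 40.5% of collagen and 17.3% of Matrigel cells, and Ifi27l2b is near 95% in both cultures.

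Cells were then grouped into 15 clusters, without the members and the other interferon genes, and each cluster is named by its leading genes. A total of 310 of the 336 collagen cells fell into 3 clusters made up almost entirely of collagen cells. The largest, with 243 cells, was led by Wfdc2, Msln and S100a6 and was regenerative-like from the markers Msln, Clu and Ly6a. Another, with 42 collagen cells, was led by Sprr1a, Plat and Il1rn, and the last, with 25 collagen cells of lower depth, by Ly6d, Sprr1a and Anxa10. Msln was at 159 CPM in the Wfdc2-led, 273 CPM in the Sprr1a-led and 903 CPM in the Ly6d-led collagen cells. Ly6a was at 176, 643 and 623 CPM in the same order, so these markers are not particular to the largest cluster. Ifitm3 was at 22.2 CPM in the Wfdc2-led cluster, 6.07 CPM in the Sprr1a-led cluster and 4.48 CPM (1.64 to 9.75) in the Ly6d-led cluster. The intervals of the Sprr1a-led (4.07 to 8.72) and Ly6d-led clusters overlapped.

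In Matrigel cells Ifitm3 was highest in the cluster led by Edn1, Gkn3 and Olfm4 (stem-like, from Gkn3, Olfm4 and Lgr5), at 761 CPM (753 to 770). It was at 665 CPM in a mitotic cluster led by Cdc20 and Cenpa and at 657 CPM in that led by Aqp4 and Sema7a, a pair whose intervals overlapped. It was at 498 CPM in the Id3-led cluster and 473 CPM in the cluster led by the histone genes H2ac24 and H2ac23. A lower level of 325 CPM was found in the Defa30-led cluster, which was also mitotic, since its next leading genes were Cenpa and Cdc20. Mki67 was found in 89.7% of its cells. Ifitm3 was at 351 CPM in the Clca1-led cluster and 168 CPM in the cluster led by several alpha-defensin genes. A cluster of shallow cells led by Dip2c, with a median mitochondrial share of 18.9%, was at 200 CPM. It was at 105 CPM (101 to 109) in the cluster led by Dmbt1 and Alpi and at 110 CPM (93.7 to 129) in the enteroendocrine-like cluster led by Chgb, Cck and Gcg, which could not be ordered. The enterocyte-like cluster was lowest at 9.63 CPM (7.62 to 12.0), although its median depth of 203346 counts was above the 179044 counts of all Matrigel cells. Thus the enterocyte-like Matrigel cells and the collagen clusters were alone below 100 CPM among the groups of at least 15 cells.

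Ifitm2 ran from 67.2 CPM in the enterocyte-like cluster to 259 CPM in the stem-like cluster of Matrigel cells, and was at 89.4, 43.7 and 21.7 CPM in the Wfdc2-led, Sprr1a-led and Ly6d-led clusters of collagen cells. Ifi27l2b had another order. It was at 286 CPM (281 to 292) in Wfdc2-led collagen cells and at 275 CPM (264 to 286) in enterocyte-like Matrigel cells, with overlapping intervals, and at 90.3 to 144 CPM in the other Matrigel clusters except the enteroendocrine-like one, where it was at 13.2 CPM. So the Matrigel cluster with the least Ifitm3 was the one with the most Ifi27l2b. The other clusters did not follow this order, since the stem-like cluster, highest in Ifitm3, was at 141 CPM of Ifi27l2b. Irf7 was at 3.89, 6.07 and 26.1 CPM in the Wfdc2-led, Sprr1a-led and Ly6d-led collagen clusters. Its level of 26.1 CPM (18.2 to 36.3) in Ly6d-led cells came from 35 counts in 8 cells, and the enteroendocrine-like Matrigel cluster, with 26.3 CPM (18.6 to 36.1) from 38 counts in 8 cells, was alike. Stat2 was at 14.4, 12.8 and 4.48 CPM in the same 3 collagen clusters, and between 1.65 and 10.6 CPM in the Matrigel clusters.

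**Figure D4:**
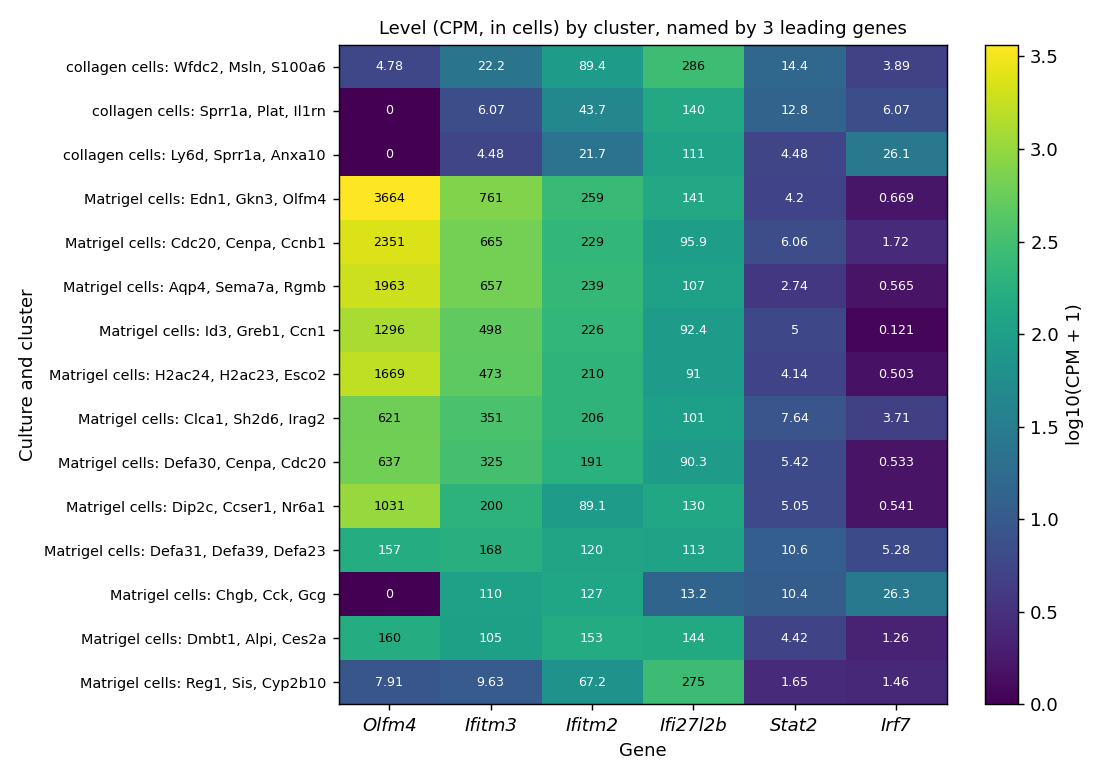
Level in CPM, printed in each cell and coloured by log10 of CPM + 1, of Olfm4 and 5 of the genes (columns) in each cluster with at least 15 cells of a culture (rows, collagen above Matrigel, ordered by Ifitm3). Ifitm3 runs from 761 CPM in the Olfm4-high Matrigel cluster to 9.63 CPM in the enterocyte-like one, and from 22.2 to 4.48 CPM in the collagen clusters.

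The remaining 26 collagen cells lay in clusters made up mostly of Matrigel cells. They held 53.4% of all collagen Ifitm3 counts, at 299 CPM, whereas the other 310 collagen cells were at 19.7 CPM. Without the 26 cells the log2 ratio of Ifitm3 was -4.54, and with the culture set by a hashtag share of at least 60% it was -2.64. That second setting also takes in cells named as doublets, 49 of its 384 collagen cells, so it does not bear on the 26 cells alone. The collagen hashtag made up less than 95% in 7 of the 26 cells and in 10 of the 310 cells. Its lowest share was 43.7% among the 26 cells and 85.1% among the 310. Whether these cells belonged to the collagen culture was not tested. Ifitm2 was at 169 CPM in the 26 cells and 81.6 CPM in the 310, while Stat2 was at 13.8 CPM in each set.

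Within Matrigel cells, the genes whose levels most resembled those of Ifitm3 over 1477 thinned cells were Olfm4 with a Pearson correlation of 0.77, Clca3b with 0.60, Gm45717 with 0.57, Cdca7 with 0.55 and Smoc2 with 0.53. Olfm4 and Smoc2 are markers of crypt base stem cells, and Olfm4 belongs to 49 genes for which the table holds no low values. Anxa2 (-0.60) and Dmbt1 (-0.58) ran most opposite to it. Ifitm2 resembled Ifitm3 with 0.56 and, beside Gm45717, Olfm4 with 0.56, Slc12a2 with 0.46, Axin2 with 0.46 and Cdca7 with 0.46. Over 264 thinned collagen cells Ifitm3 and Ifitm2 had a correlation of 0.45. These correlations are descriptions of cells of 1 suspension each, and the cells share their library. The genes nearest to Ifi27l2b in Matrigel cells were only loosely like it, Pdgfa with 0.34, Chd9 with 0.33, Lgals4 with 0.28, Adh1 with 0.26 and Krt19 with 0.25. The correlation of Ifitm3 was -0.01 with Stat2, -0.06 with Irf7, -0.03 with Irf9, -0.02 with Isg15 and -0.05 with Ifi27l2b in Matrigel cells, and counts of most of these genes are too sparse to read such values as a relation.

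The other steps of the pathway were described with lists of 120 genes beyond the members, of which 55 reached 5 CPM. By the same limit, 5 of these 55 (9.09%) were lower with collagen and 3 (5.45%) were higher, against a background of 8.91% lower and 8.21% higher over all genes. Their median log2 ratio was 0.23. The 8 genes beyond 2-fold are all named here, and Sting1, Psmb9 and Ifit1bl1, which stayed under 10 CPM, were chosen after their values were seen.

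Of the ligands, only Ifnz had a row among the 21 symbols looked for, at 0 CPM in collagen cells and 0.0249 CPM in Matrigel cells, from 7 counts. The other ligand genes were not analysed here. Receptors and their kinases were present in both cultures. The 8 of 9 that reached 5 CPM were within 2-fold once 1 CPM was added, with a median log2 ratio of 0.57. Tyk2 was at 23.2 CPM in collagen cells and 12.5 CPM in Matrigel cells, and Jak1 at 85.6 CPM in collagen cells and 53.4 CPM in Matrigel cells. Ifngr1, a chain of the receptor for interferon gamma, was at 168 CPM in collagen cells and 116 CPM in Matrigel cells. Its partner Ifngr2 was at 81.2 CPM in collagen cells and 52.9 CPM in Matrigel cells. Ifnlr1, the chain particular to type III interferon, was at 6.59 CPM in collagen cells and 2.89 CPM in Matrigel cells. Its log2 ratio was 0.97, inside the 2-fold limit only because 1 CPM was added. Ifnar1 was at 12.7 CPM in collagen cells and 11.4 CPM in Matrigel cells.

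Among the 4 STAT genes that reached 5 CPM, 1 was beyond 2-fold, Stat2 itself. Stat3 was at 29.9 CPM in collagen cells and 15.4 CPM in Matrigel cells, a log2 ratio of 0.91, and Stat6 at 52.4 CPM in collagen cells and 61.1 CPM in Matrigel cells. Among the 6 IRF genes, Irf7 was higher in collagen cells, and Irf8, a factor best known from myeloid cells, was lower, with 21.5 CPM in collagen cells and 52.3 CPM in Matrigel cells and a log2 ratio of -1.25. Irf1 was at 17.0 CPM in collagen cells and 12.3 CPM in Matrigel cells. Of 9 genes that sense nucleic acids, the adaptor Ticam1 was higher, with 14.8 CPM in collagen cells and 5.78 CPM in Matrigel cells. The adaptor Sting1 was lower, with 1.96 CPM in collagen cells and 6.22 CPM in Matrigel cells. The DNA sensor Cgas, within 2-fold, was at 7.24 CPM in collagen cells and 14.0 CPM in Matrigel cells, and the kinase Ikbke at 14.0 CPM in collagen cells and 7.93 CPM in Matrigel cells.

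Of 39 antiviral effector genes in the table, 16 reached 5 CPM, of which 2 passed the limit toward collagen and 0 toward Matrigel, and their median log2 ratio was 0.16. Oasl1, which is known in mouse to restrain translation of Irf7, was at 17.4 CPM in collagen cells and 1.51 CPM in Matrigel cells, a log2 ratio of 2.87. Ifit1bl1, an Ifit family gene, was at 7.64 CPM in collagen cells and 0.552 CPM in Matrigel cells, with counts in 27 collagen cells and 43 Matrigel cells. Lgals9, a galectin, was just within the limit on the other side, at 124 CPM in collagen cells and 248 CPM in Matrigel cells, a log2 ratio of -0.99. Samhd1, which lowers the pool of nucleotides for viral DNA synthesis, was at 10.3 CPM in collagen cells and 21.3 CPM in Matrigel cells. Its log2 ratio of -0.98 was within the limit only because 1 CPM was added. Bst2, which tethers virus particles to the cell, was at 29.6 CPM in collagen cells and 19.4 CPM in Matrigel cells. A further 16 of the 39 effector genes stayed below 1 CPM in both cultures. They included Ifit1 at 0.376 CPM in collagen cells and 0.114 CPM in Matrigel cells, Mx1 at 0.234 CPM in collagen cells and 0.179 CPM in Matrigel cells, and Rsad2 at 0.400 CPM in collagen cells and 0.235 CPM in Matrigel cells. Like Isg15, these classical targets were thus near 0 in each culture.

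Among 5 GTPase and antigen processing genes that reached 5 CPM, the immunoproteasome subunit Psmb9 was lower, with 2.50 CPM in collagen cells and 8.36 CPM in Matrigel cells, while Tapbp was at 31.9 CPM in collagen cells and 18.3 CPM in Matrigel cells and Psmb10 at 38.7 CPM in collagen cells and 64.2 CPM in Matrigel cells. Of all 22, 14 were below 1 CPM in both cultures. Of 9 negative regulators, Socs2 was lower, with 8.91 CPM in collagen cells and 27.6 CPM in Matrigel cells, and Ptpn6 was lower, with 9.37 CPM in collagen cells and 21.3 CPM in Matrigel cells. Pias3 was at 12.7 CPM in collagen cells and 6.61 CPM in Matrigel cells. Usp18, which removes Isg15 from proteins, was at 0.133 CPM in collagen cells and 0.165 CPM in Matrigel cells.

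**Figure D5:**
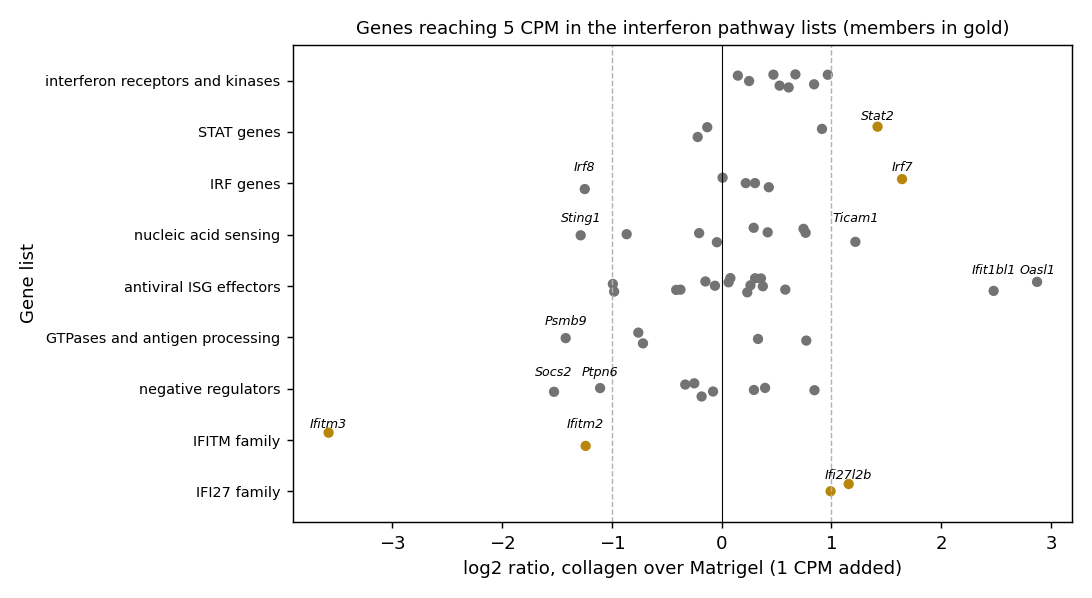
Log2 ratio of collagen over Matrigel (x axis, 1 CPM added) for each gene reaching 5 CPM in the lists of the interferon pathway (rows), members in gold and other genes in grey, with dashed lines at 2-fold. Receptors and kinases all lie between the lines to the right of 0, and Ifitm3 at -3.58 and Oasl1 at 2.87 lie furthest out on each side.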

How the data were processed

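Single-cell cDNA of a pool of collagen and Matrigel cells was captured on the BD Rhapsody system and amplified by TAS-Seq, per the labels. The submitters' processing notes name cutadapt 4.1, STARsolo 2.7.10a, R 4.2.1 and the GRCm39 build, with no role or order. The gene annotation was not given in the sources used here. The deposited expression table holds expected counts per gene and cell, not scaled, for 37172 genes and 2090 cells. Of its values above 0, 75.6% were whole (within 1e-06). Whether copies of a molecule were collapsed is not stated, so intervals may be too narrow. Fractional values can come from reads shared between genes. The deposited hashtag table holds whole-number counts for 200497 barcodes, including all 2090 cells, and 9 of its columns belong to no sample here and were not used.

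Cell names set the culture, and 139 cells named as doublets were left out of the comparison. No further doublet caller was run. The cell filter asked for 500 or more detected genes and a mitochondrial share of 30% or less. It removed 0 of 336 collagen cells and 16 of 1615 Matrigel cells. Counts were summed per culture and scaled to 1000000. Sums were rounded before intervals were computed. A call was a log2 ratio of at least 2-fold with 1 CPM added, in genes reaching 5 CPM in either culture. Thinning used percentile 10 of the depth, 77972 counts. Clusters came from 2000 variable genes, 30 components and Leiden clustering at resolution 1.2 in scanpy 1.11.5. Python 3.11.15 and scipy 1.17.1 were used. Likeness was Pearson's correlation of log values over thinned cells. The calculation of ratios was checked on simulated counts.

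The members and lists were chosen with earlier results of these data known. Genes outside the members were named by rule: up to 4 per list with the largest ratio among those reaching 10 CPM, receptors and ligands, and for likeness the 5 highest correlations of at least 0.2 for members found in at least 20% of Matrigel cells. Other genes named at near 0 are defining targets of the response. Promoters came from RefSeq in build GRCm38.p6, which differs from that of the counts. Alternatives covered scaling, pseudocount, cell filter, culture assignment, depth, weighting of cells and extreme cells. Some genes of the wider lists are not reported here and do not enter the counts of those lists.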

Additional observations from a re-analysis of the deposited data

Results flagged for a closer look

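The 139 cells named as doublets stand outside the comparison, and 137 of them passed the cell filter. Ifitm3 was at 419 CPM in these 137 cells and Ifi27l2b at 142 CPM, both above the 0.131 CPM that a count of 0 allows there (3 counts over the cells' total). The Ifitm3 level lay between those of collagen cells (39.2 CPM) and Matrigel cells (480 CPM), and so did that of Ifi27l2b, at 255 CPM in collagen cells and 114 CPM in Matrigel cells.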

How the results depend on the processing

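No paired analysis was possible because each culture gave 1 suspension of cells in 1 library. No result changed direction under any alternative run. The count of members at least 2-fold lower in collagen cells was within 1.5 times of 2 in all 10 alternatives. That of members higher was 1 with 5 CPM added, against 3. The median log2 ratio of the Ifitm genes, -1.24, was -1.29 with 0.1 CPM added, -1.09 with a hashtag share of at least 60%, -1.34 as the mean of per-cell CPM and -1.34 with only collagen cells of collagen-majority clusters, an alternative chosen after seeing the data. With 0.1 CPM added the middle gene changed from Ifitm2, itself at -1.25, to Ifitm1. That of Stat2, Irf7, Irf9, Ifi27 and Ifi27l2b, 1.16, was 0.77 with 5 CPM added, 1.07 and 1.21 with hashtag shares of 60% and 95%, 1.21 after thinning, 1.02 as the mean of per-cell CPM and 1.2 with the collagen-majority clusters. With 5 CPM added the middle gene changed from Ifi27l2b, itself at 1.13, to Irf7. Among the wider lists, 3 genes were lower and 0 higher in collagen cells at a floor of 20 CPM, against 5 lower and 3 higher at 5 CPM, since fewer genes reach that floor. Over 10 alternatives the log2 ratio ran from -4.54 to -2.64 for Ifitm3, -1.34 to -1.09 for Ifitm2, 0.98 to 1.58 for Stat2, 0.77 to 2.28 for Irf7, -0.49 to -0.16 for Irf9, 0.69 to 1.10 for Ifi27 and 1.02 to 1.21 for Ifi27l2b. By a hashtag share of 60%, 49 doublet-named cells counted as collagen and 54 as Matrigel. Apart from the changes of middle gene, the cause of these shifts was not tested. Filling in absent low values was not run, since 0 of the 9 members are among the 49 genes without low values. Depth limits Ifitm1 and Isg15, whose collagen levels rest on 1 and 18 counts.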

Other observations

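Oasl1 was unevenly spread among collagen cells, at 83.4 CPM in the Sprr1a-led cluster, 9.66 CPM in the Wfdc2-led cluster and 5.97 CPM in the Ly6d-led cluster, and from 0.427 to 4.75 CPM in the Matrigel clusters. Irf7 was at 6.07 CPM in the same Sprr1a-led cells, so the collagen cluster highest in Oasl1 was not the one highest in Irf7.

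The genes beside the members on their chromosomes, in the order of the RefSeq annotation, were looked at after the values of the members were known. On chromosome 7, B4galnt4, a glycosyltransferase gene that follows Ifitm3 and Ifitm6, was at 1.58 CPM in collagen cells and 14.4 CPM in Matrigel cells, a log2 ratio of -2.58, while Pkp3 after it was at 27.4 CPM in collagen cells and 14.4 CPM in Matrigel cells. Beside Irf7, also on chromosome 7, Cdhr5, which encodes a cadherin of the brush border, was at 89.8 CPM in collagen cells and 24.0 CPM in Matrigel cells, and Phrf1 on the other side at 14.9 CPM in collagen cells and 17.0 CPM in Matrigel cells. Agrn, next to Isg15 on chromosome 4, was at 119 CPM in collagen cells and 31.4 CPM in Matrigel cells, though Isg15 itself stayed below 1 CPM. Whether neighbours share control with the members was not tested.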
